A study of Mus musculus with 120 samples.

Results

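The 1 kb windows of the genome that differed in DNA methylation between App-NLGF and wild-type hippocampus at postnatal week 8 are described here by gene, position and direction. They are all the windows that the authors' deposited table lists for this tissue and age, 742 of the 8961 windows listed over 6 comparisons. The App-NLGF group (Hippocampus_NLGF_W8) and the wild-type group (Hippocampus_WT_W8) held 10 whole-genome bisulfite libraries each, 5 from females and 5 from males. In App-NLGF knock-in mice the endogenous App gene encodes human amyloid-beta and bears the Swedish, Iberian and Arctic changes, so the mutant precursor is made from its own promoter in every cell that uses it. The labels give the genotypes as APP-nlgf and Wild-type and state no strain or further allele. The comparison asks which methylation differences exist around the age at which plaques begin to form in this model. The hippocampal identity of the tissue could not be checked against marker genes, because only called windows were analysed here.

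In mammalian DNA a large part of the methyl groups sits on cytosines followed by guanine (CG sites). Gene bodies and the space between genes are as a rule densely methylated, while promoters rich in CG sites are usually kept free of methylation. Bisulfite treatment converts unmethylated cytosine and spares methylated cytosine, so the share of unconverted reads gives the methylation level. A difference is given in percentage points, App-NLGF minus wild type, and that order rests on the name of the deposited comparison. If it were reversed, every direction below would turn. Values per library, levels in each genotype and read coverage were not analysed here, so the depth is unknown and no spread between mice can stand beside a difference.

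The following stretches are parts of called windows that lie directly upstream of an annotated gene start, shown because they range from dense in CG sites to free of them. Capitals mark CG sites, the letters run 5′ to 3′ on the strand of the gene, and the sequences are from RefSeq on GRCm38.p6, which shares its coordinates with mm10.
Eif4a3 (chr11:119300044-119300293, minus strand): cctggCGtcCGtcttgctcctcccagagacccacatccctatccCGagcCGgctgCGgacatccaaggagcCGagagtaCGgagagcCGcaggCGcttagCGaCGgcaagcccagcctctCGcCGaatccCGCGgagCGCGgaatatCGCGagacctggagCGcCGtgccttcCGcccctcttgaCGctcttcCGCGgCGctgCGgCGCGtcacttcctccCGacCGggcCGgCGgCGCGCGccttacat
Itga5 (chr15:103366792-103367000, minus strand): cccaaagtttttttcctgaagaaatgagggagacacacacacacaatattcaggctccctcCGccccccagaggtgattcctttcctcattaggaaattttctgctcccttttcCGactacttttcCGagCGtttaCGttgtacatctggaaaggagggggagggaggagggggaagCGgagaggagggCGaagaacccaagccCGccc
Ifi44l (chr3:151762892-151763000, minus strand): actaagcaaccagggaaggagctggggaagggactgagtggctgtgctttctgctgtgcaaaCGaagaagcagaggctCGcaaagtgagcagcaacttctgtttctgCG
Vmn1r224 (chr17:20419001-20419162, plus strand): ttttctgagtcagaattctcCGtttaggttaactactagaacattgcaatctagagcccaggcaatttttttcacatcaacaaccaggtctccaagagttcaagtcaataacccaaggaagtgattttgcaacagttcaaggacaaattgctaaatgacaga
Gm42185 (chr3:17069472-17069721, minus strand): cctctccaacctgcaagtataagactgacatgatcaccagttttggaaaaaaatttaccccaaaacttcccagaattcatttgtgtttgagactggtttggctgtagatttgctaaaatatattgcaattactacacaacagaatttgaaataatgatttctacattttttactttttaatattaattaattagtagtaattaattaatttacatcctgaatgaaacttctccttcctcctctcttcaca

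These 5 stretches differ widely in CG sites, with 36 at Eif4a3, 8 at Itga5, 3 at Ifi44l, 1 at Vmn1r224 and 0 at Gm42185. Over the whole 300 bases around the start, Eif4a3 held 42 CG sites, and 3.03% of the 32851 promoters in the RefSeq table held as many. In the same 300 bases Itga5 held 13, Ifi44l 8 and Vmn1r224 1, the printed stretches being cut to what lies in the window upstream of the start. The median promoter held 7 CG sites, and 94.6% held at least 1. The window that covers the Eif4a3 start, the gene of a helicase of the exon junction complex, was 11.5 points higher in App-NLGF (adjusted p = 0.0230) per the authors' deposited table. At Itga5, which encodes a subunit of the fibronectin receptor, the authors' deposited table gives 12.2 points (adjusted p = 0.0648). The window over the start of Ifi44l, an interferon-induced gene, was at 15.1 points per the authors' deposited table (adjusted p = 0.0679). For Vmn1r224, a vomeronasal receptor gene, the authors' deposited table gives 27.8 points at an adjusted p of 0.0999, the weakest of the list. Gm42185, a noncoding RNA gene with no CG site in the 300 bases around its start, lay in a window of -34.2 points per the authors' deposited table. That was the largest decrease of all 742 windows, and the gene was singled out after its value was seen.

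Of an estimated 2330500 windows tested by the authors, 742 were listed (0.0318%), 405 of them higher in App-NLGF (0.0174%) and 337 lower (0.0145%). The estimate was derived by dividing p by adjusted p. By the same ranks at least 1195 windows had an adjusted p under 0.1. The listed windows, which all differ by at least 10 points, were therefore at most 62.1% of those. Differences were modest in size: the median absolute difference was 13.3 points among higher windows and 13.95 points among lower ones. The full range ran from -34.2 to 37.6 points. Absolute differences between 10 and 12 points made up 207 windows, those between 12 and 15 points 253, and those of at least 25 points made up 34. The median adjusted p was 0.0704, with 220 windows under 0.05 and 27 under 0.01. Just inside the limits, the smallest differences were 10.0009, 10.002 and -10.02 points and the largest adjusted p values 0.0999, 0.0995 and 0.0995.

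**Figure D1:**
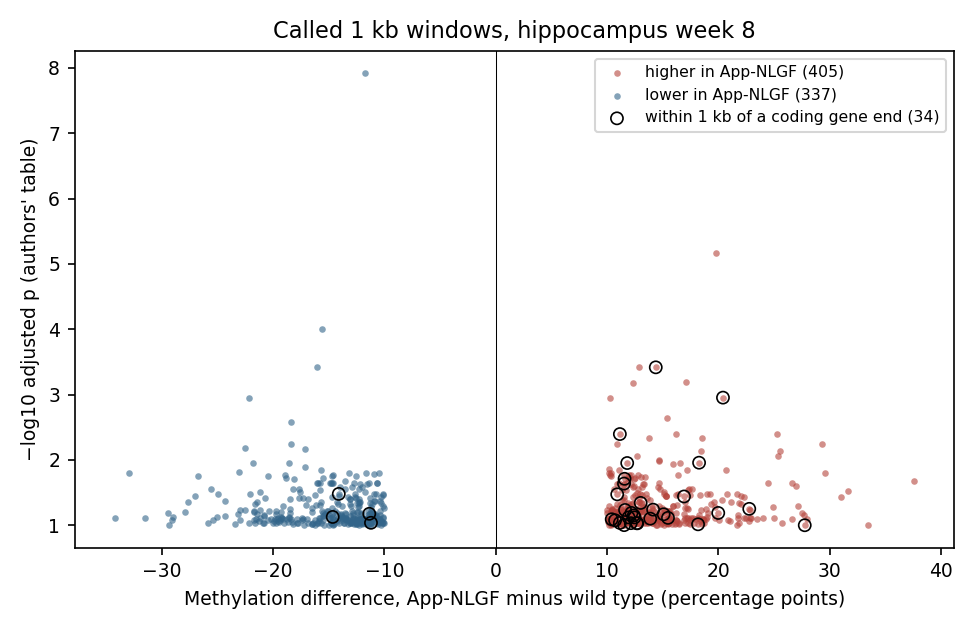
Each point is a called window, with its methylation difference (App-NLGF minus wild type, percentage points) across and −log10 of the authors' adjusted p up; red windows are higher and blue windows lower in App-NLGF, and black rings mark windows no more than 1 kb from either end of a coding gene. The rings stand on the right in 30 of 34 cases, and 1 lower window reaches an adjusted p of 1.21e-08.

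The windows with the smallest adjusted p were not those with the largest differences. The first, on chromosome 5 at 124936001 to 124937000, had no annotated gene within 10 kb and stood at -11.7 points with an adjusted p of 1.21e-08 per the authors' deposited table. A window on chromosome 11 at 27706001 to 27707000, also without a gene within 10 kb, followed at 19.8 points and an adjusted p of 6.75e-06 per the authors' deposited table. Among windows at genes, the authors' deposited table places Pard6g, a subunit of the Par polarity complex, first at -15.6 points (adjusted p = 0.000100). Shroom3, which couples actin and myosin at the cell apex, had -16.1 points (adjusted p = 0.000383) per the authors' deposited table. Exoc4, a subunit of the exocyst that tethers secretory vesicles, had 12.3 points (adjusted p = 0.000663) per the authors' deposited table. The mitochondrial fission gene Fis1 stood at 20.4 points with an adjusted p of 0.00111 per the authors' deposited table. That window covers the end of Fis1 and lies 0.869 kb before the start of the claudin gene Cldn15, so it cannot be given to either gene alone. Fam91a1, which acts in vesicle capture at the Golgi, had 10.3 points with the same adjusted p of 0.00111 per the authors' deposited table, besides a lower window 7 kb away. A window on chromosome 16 at 69421001 to 69422000, with no gene within 10 kb, had 17.1 points (adjusted p = 0.000646) per the authors' deposited table.

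By position, 288 of the 740 windows placed on an assembled chromosome overlapped a coding gene (38.9%). Another 361 (48.8%) lay outside every annotated gene and more than 1 kb from any coding gene. A further 78 (10.5%) lay in noncoding genes only, also more than 1 kb from any coding gene. The few left over lay within 1 kb of a coding gene without overlapping one. The classes outside genes and in noncoding genes only stood near their shares of the whole grid of 1 kb windows, 50.1% and 8.56%. The grid holds 2612194 windows, more than the estimated 2330500 tested. Its shares, here and below, need not be those of the tested windows. Away from their ends, coding genes over 500 kb held 54 windows, split evenly with 27 higher and 27 lower, and 7.30% of windows compared with 7.20% of the grid. Coding genes of 100 to 500 kb held 122 windows, 63 higher and 59 lower. Shorter coding genes held 91, with 51 higher and 40 lower.

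Windows at the ends of coding genes departed from this even split. Of the 34 windows no more than 1 kb from either end of a coding gene, 30 were higher and 4 lower in App-NLGF. They made up 7.44% of the higher windows (exact Clopper-Pearson 95% interval 5.08 to 10.5) and 1.19% of the lower ones (0.324 to 3.01), where the grid holds 4.36%. The intervals describe the list of windows and not mice, and no test over mice was run. A window methylated under 10% in wild type could not be listed as lower, since the list starts at 10 points. Levels in each genotype were not analysed here, so the part of that limit in the split at gene ends and starts was not tested. Strand was known for 79.9% of coding genes, and with it the higher windows fell at the start of 22 genes and at the end of 6, with 3 genes of unknown strand. Counted from the nearest coding start that the RefSeq promoter table holds, 26 of 389 higher windows (6.68%, 4.41 to 9.64) and 2 of 327 lower windows (0.612%, 0.0742 to 2.19) had their centre within 2 kb, beside 2.85% of the grid. Coding genes with no start in that table could not be counted, so some nearer starts were missed, and the 24 windows of chromosome 18 were left out. Among windows of at least 20 points, 2 of 46 higher ones (4.35%) and 1 of 48 lower ones (2.08%) lay that near a start.

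**Figure D2:**
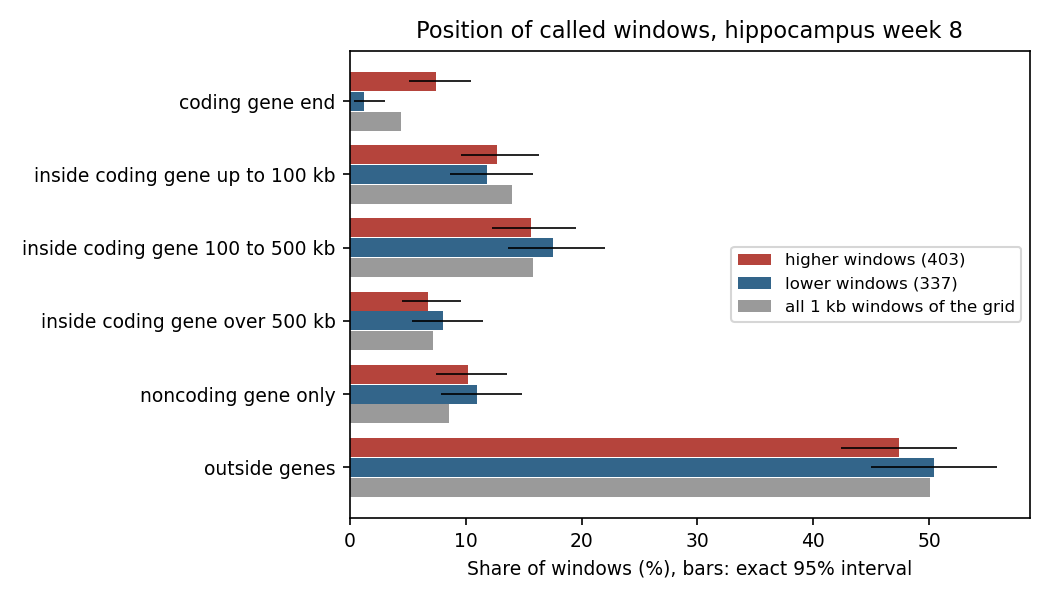
Bars give the share of higher windows (403, red), lower windows (337, blue) and all 1 kb windows of the grid (grey) in each class of position, with exact 95% intervals over windows. Higher and lower shares lie close together in every class but coding gene ends, where they are 7.44% and 1.19%.

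**Figure D3:**
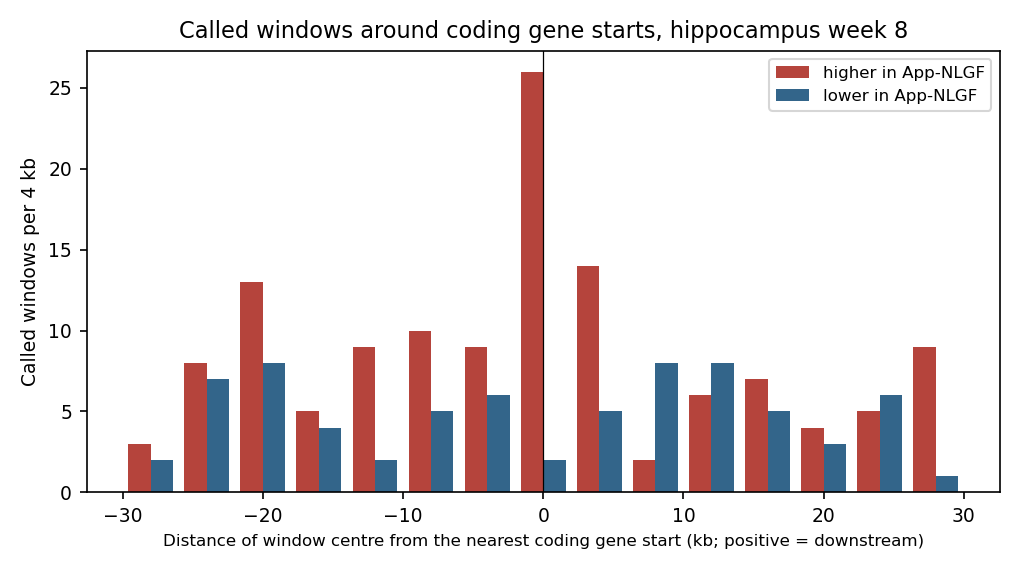
Numbers of called windows per 4 kb are plotted against the distance of the window centre from the nearest coding gene start in the RefSeq promoter table, with downstream positive and the 30 kb on either side shown. The central bin, within 2 kb of a start, holds 26 higher and 2 lower windows.

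The genes with a higher window at an end had many different functions. Signalling genes among them included Lgr6, a receptor for R-spondins that amplify Wnt signals, at 18.3 points (adjusted p = 0.0110) per the authors' deposited table. Its window lies 0.627 kb outside the gene, and a further window inside the gene stood at -10.1 points per the authors' deposited table. Wnt10b, a Wnt ligand, was at 12.7 points and Npr1, the receptor of atrial natriuretic peptide, at 13.0 points per the authors' deposited table. Tradd, the adaptor of the tumour necrosis factor receptor, shares a window with its neighbour Fbxl8, an F-box gene, at 11.9 points per the authors' deposited table. Lcp2, an adaptor of T cell receptor signalling, stood at 12.1 points per the authors' deposited table. Dgkk, a diacylglycerol kinase gene on X, had 2 windows at its start, 11.2 points (adjusted p = 0.00402) and 16.9 points (adjusted p = 0.0362), per the authors' deposited table. They lay 1 kb apart and were the only pair of windows within 10 kb of each other with the same sign.

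Trafficking and nucleic acid genes formed another part of these. Vps35, the core of the retromer that retrieves receptors from endosomes, was at 11.5 points with an adjusted p of 0.0995 per the authors' deposited table. Tbc1d9, a Rab GTPase-activating protein gene, stood at 11.6 points and Tsn, which encodes the nucleic acid binding protein translin, at 11.6 points per the authors' deposited table. Rnaset2b, a ribonuclease gene, was at 12.5 points and the sugar phosphate transporter gene Slc37a2 at 12.4 points per the authors' deposited table. Tsc22d1, a transcription regulator, had 14.1 points and the zinc finger gene Zfp600 22.8 points per the authors' deposited table. Genes best known from other tissues included the olfactory receptors Olfr1168 at 19.997 points and Olfr1274 at 18.2 points, and the cystatin gene Cst9 at 12.7 points, per the authors' deposited table. The remaining named genes were Dnah11, Lce1e, Tmem179, Ccdc116 and Ccdc8, between 10.4 and 11.8 points per the authors' deposited table. The lower side held Rps6ka3, a growth factor kinase gene on X, at -14.6 points, Zdhhc14, a palmitoyltransferase gene, at -11.3 points and Ccdc85a at -11.2 points per the authors' deposited table, besides 1 predicted gene.

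Within 10 kb, 376 of 21631 coding genes had a window (1.74%), 225 with a higher one (1.04%) and 160 with a lower one (0.740%). Inside the body the number was 281 genes (1.30%). How often a gene had a window followed its length: 48 of the 227 coding genes over 500 kb (21.1%) and 14 of the 7742 up to 10 kb (0.181%) had one in the body. Per megabase of gene there were 0.285 windows in genes over 500 kb and 0.294 in genes of 100 to 500 kb, with 0.209 in genes of 50 to 100 kb and 0.402 in those up to 10 kb.

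The largest increases inside coding genes reached 33.5 points. That value belongs to Ggact (chromosome 14, 122900001 to 122901000), an enzyme gene of glutamylamine breakdown, and its adjusted p was 0.0988 per the authors' deposited table. Dach2, a transcriptional cofactor gene on X, stood at 29.3 points with a far smaller adjusted p of 0.00575 per the authors' deposited table. Fat3, an atypical cadherin that shapes neurites, was at 25.8 points (adjusted p = 0.0923) per the authors' deposited table. Sirt5, a mitochondrial desuccinylase gene, was at 25.3 points (adjusted p = 0.00402) and Pramel33 at 25.5 points (adjusted p = 0.00721) per the authors' deposited table. Kansl1, a subunit of a histone acetyltransferase complex, had 22.9 points, the aldo-keto reductase gene Akr1c20 22.5 points and the apical polarity gene Crb1 22.3 points per the authors' deposited table. Of these increases, those at Dach2, Sirt5 and Pramel33 had an adjusted p under 0.05.

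The largest decreases reached -32.9 points. They were led by Dennd1a, an exchange factor for the endosomal GTPase Rab35 (chromosome 2, 37819001 to 37820000), with an adjusted p of 0.0158 per the authors' deposited table. Lrrc4b, a postsynaptic adhesion protein gene, followed at -31.5 points (adjusted p = 0.0767) per the authors' deposited table. Pak3, a kinase of dendritic spines encoded on X, stood at -29.0 points (adjusted p = 0.0738) per the authors' deposited table. Nell1, which encodes a secreted glycoprotein, was at -26.8 points (adjusted p = 0.0179) per the authors' deposited table. Uprt, related to uracil phosphoribosyltransferases, had -22.1 points with an adjusted p of 0.00111 per the authors' deposited table. Others were Mageb18 at -29.4 points, Olfr91 at -25.8 points, the T cell gene Themis at -23.4 points, Iqcm at -21.7 points and the formin gene Diaph2 at -21.7 points per the authors' deposited table.

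More than 1 window fell inside or within 10 kb of 14 coding genes, and the signs were mixed in 9 of them. Epha6, an ephrin receptor of axon guidance, had 23.5 and -12.3 points 141 kb apart per the authors' deposited table. Magi2, a synaptic scaffold over 1485 kb long, had -13.7, -18.4 and 12.2 points per the authors' deposited table. Robo2, the Slit receptor, was the gene whose windows were all lower, at -18.1 points (adjusted p = 0.0192) and -13.1 points (adjusted p = 0.0395) per the authors' deposited table. Windows were all higher at 4 genes. Map2, the microtubule protein of dendrites, had 11.4 and 12.2 points, and Exoc4 11.6 and 12.3 points, per the authors' deposited table. Kansl1 and Dgkk were the others. The first Kansl1 window lies inside Mapt, the tau gene, and stood at 10.3 points (adjusted p = 0.0159) per the authors' deposited table. For mixed genes no single direction can be given, Arhgap6, Fam91a1, Gmds, Lgr6, Olfr91, Olfr92 and Znrf1 among them. The neighbours Olfr91 and Olfr92 were counted with the same 2 windows, which lie inside Olfr91 and outside Olfr92.

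Gene lists covered 706 coding genes in 20 lists, and 41 of them (5.81%) had a window, with 22 windows higher and 22 lower. Beside this share stands 1.74% of all coding genes, and the lists were not matched to it for gene length. The lists were also chosen with earlier results of these data known, so the gap between the shares is no evidence about them. The signed median difference over all windows at coding genes was 10.8 points. Signed medians mix higher and lower windows, and the deposited list leaves out small differences. Such a median therefore mainly shows which sign holds more windows, and does not measure the size of a difference. Cadherins and protocadherins, which hold cells and synapses together, had 6 of 36 members with a window, 4 windows higher and 2 lower. Their signed median was 17.1 points. Pcdh9 stood at 20.7 points (adjusted p = 0.0144), Cdh6 at 18.6 points and Cdh10, 4.80 kb away, at 15.7 points per the authors' deposited table. Cdh12 was at -13.7 points and Cdh2, the neural cadherin, at -12.0 points per the authors' deposited table.

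Among 67 axon guidance genes 6 had a window, with 2 windows higher and 6 lower. Their signed median was -12.7 points. Besides Epha6 and Robo2, the semaphorin coreceptor Plxna4 stood at -19.7 points and the contactin-associated genes Cntnap4 at -14.7 points (adjusted p = 0.0179) and Cntnap2 at -12.3 points per the authors' deposited table. The adhesion gene Ntm was at 13.1 points (adjusted p = 0.0263) per the authors' deposited table. Both synaptic adhesion members of 41 were lower, Lrrc4b and Clstn2, a calsyntenin, at -21.1 points per the authors' deposited table. Of 43 genes of glutamate receptors and the postsynaptic density 3 had a window. The NMDA receptor subunits Grin2b (14.7 points, adjusted p = 0.01005) and Grin2a (-19.3 points, adjusted p = 0.0758) went opposite ways per the authors' deposited table, and the scaffold Dlg2 was at 13.0 points per the authors' deposited table.

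Among 34 presynaptic vesicle release genes 3 had a window, with 3 windows higher and 1 lower. Of the higher windows 2 lay in Exoc4, which is also counted among the genes of cell polarity, actin and vesicle trafficking. The calcium sensor Syt1 was at 13.2 points and the vesicle phosphoprotein Syn2 at -15.6 points per the authors' deposited table. Voltage-gated channels had 5 of 42 members with a window, 2 higher and 3 lower. Calcium channel subunits were the higher ones, Cacna1b at 13.5 points and Cacna1c, 1.24 kb away, at 10.9 points (adjusted p = 0.0233), per the authors' deposited table. Potassium channel genes were the lower ones, among them Kcnh8 at -11.9 points and Kcnd3, 4.89 kb away, at -11.8 points per the authors' deposited table.

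Cell polarity, actin and vesicle trafficking genes had 2 windows higher and 5 lower, with a signed median of -15.6 points. Of the 37 members 6 had a window. Pard6g, Shroom3, Dennd1a, Pak3 and Exoc4 are among them, and this list was drawn up with the windows of these 5 genes known, so its count is no evidence about the group. Exoc6, another exocyst subunit, was at -12.3 points (adjusted p = 0.0283) per the authors' deposited table. Of 39 hippocampal subfield and developmental factors 3 had a window, all higher. Besides Dach2, they included the homeobox gene Lhx9, 7.16 kb away, at 13.9 points per the authors' deposited table.

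**Figure D4:**
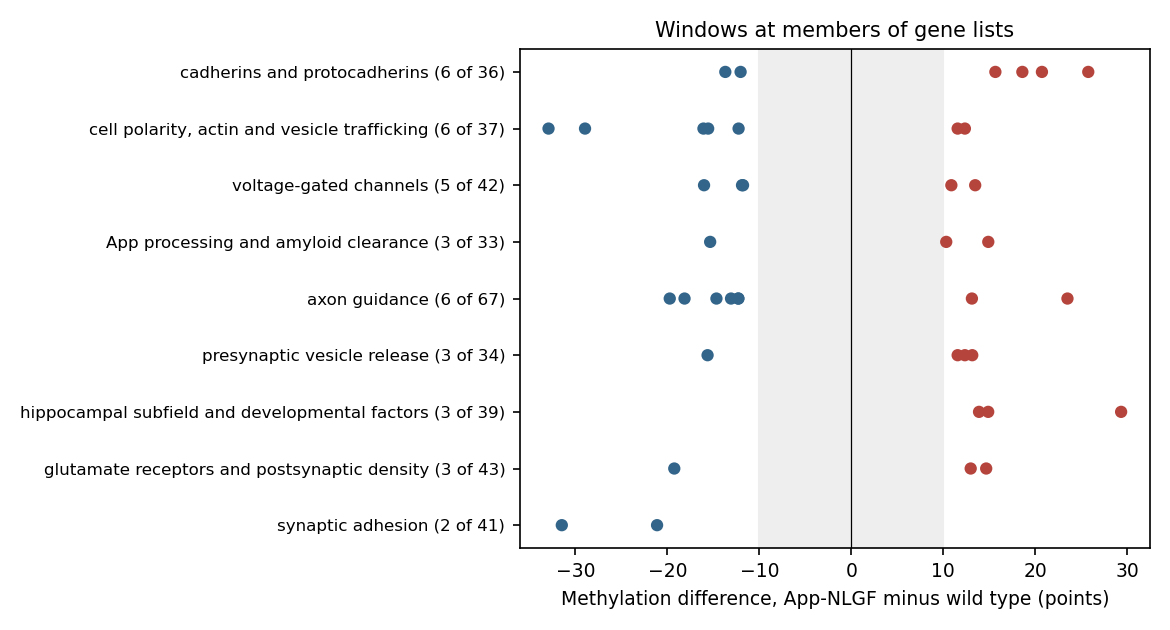
Each dot is a called window at a member of a gene list, placed by its methylation difference (App-NLGF minus wild type, percentage points); the lists with at least 2 members with a window are shown, with members with a window of all coding members in brackets, and the grey band is the range under 10 points that the deposited list does not hold. Both synaptic adhesion windows are lower, all 3 windows of hippocampal subfield and developmental factors are higher, and the other lists hold both signs.

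The list drawn up for App processing and amyloid clearance had 3 of 33 members with a window. Among them was Mapt, which encodes tau and not a protein of amyloid metabolism, and its window was also counted at Kansl1. Ece1, an amyloid-beta degrading enzyme, had one 6.24 kb away at 14.9 points and the sorting receptor gene Sorcs2 one at -15.3 points per the authors' deposited table. None of the 42 Alzheimer risk loci, 41 genes of microglia, complement and interferon, 23 of the oligodendrocyte lineage, 32 of inhibitory neurons and GABA receptors, 41 of DNA methylation and chromatin and 28 immediate early and activity genes had a window within 10 kb. These lists do not hold every gene of their kind. The interferon-induced gene Ifi44l and Kansl1, of a histone acetyltransferase complex, had windows and are not in them. Astrocyte genes had 1 of 20, the glypican Gpc5 at 12.5 points per the authors' deposited table. Blood and platelet genes also had 1 of 29, the platelet integrin gene Itga2b at 16.9 points per the authors' deposited table. Autophagy and insulin genes had 1 of 36 with a window, a higher one. Imprinted genes had 1 of 30, the phosphatase gene Inpp5f at -11.5 points per the authors' deposited table. Among 21 mitochondrial dynamics genes the member was Fis1. Of all coding genes 1.74% had a window within 10 kb, and at that share lists of these sizes may well hold 0 or 1. These low counts are therefore no result about the groups. Absence from the list does not show equal methylation, since a window may have missed a limit or been covered too thinly.

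Called windows were spread over all autosomes and X, between 0.188 per Mb on chromosome 10 and 0.379 per Mb on chromosome 8. Chromosome 8 held 31 higher and 18 lower windows, chromosome 11 22 higher and 10 lower. On chromosome 19 the balance was the other way, with 7 higher and 12 lower. Neighbouring windows on a chromosome lay a median of 2.16 Mb apart, and 3 pairs stood within 10 kb of each other. On X, 51 windows (23 higher, 28 lower) had a median absolute difference of 18.4 points, against 13.3 points for the 689 autosomal windows. Of the X windows 16 (31.4%) reached 20 points, against 81 autosomal ones (11.8%). Genes of the X windows included Tenm1, a teneurin of synaptic wiring, at -21.5 points per the authors' deposited table. Read depth on X, of which males carry a single copy, was not analysed here, and its part in these sizes was not tested.

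**Figure D5:**
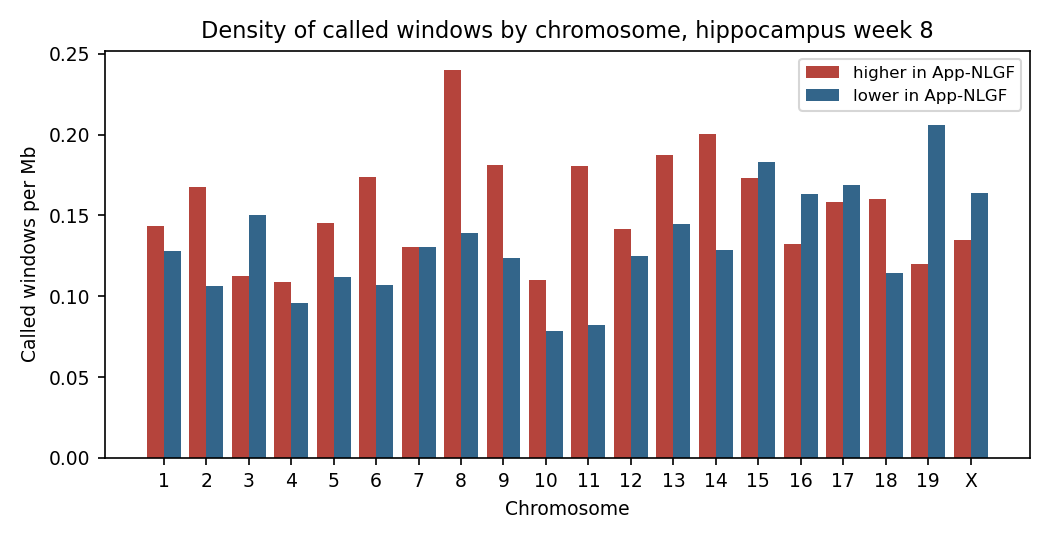
Bars give called windows per Mb on each chromosome, higher in App-NLGF in red and lower in blue, with the span from the first to the last annotated gene as length. Chromosome 8 has the most in all (0.379 per Mb) and chromosome 10 the fewest (0.188 per Mb).

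The knock-in gene itself carried no window. App lies on chromosome 16 at 84952666 to 85175255, and the nearest window, in Cyyr1 321 kb away, was at -21.2 points (adjusted p = 0.0307) per the authors' deposited table. Within 5 Mb of App there were 3 windows, 1 higher and 2 lower, which is 0.293 per Mb beside 0.296 per Mb on chromosome 16 as a whole and 0.283 per Mb over all chromosomes.

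Windows called at another age or in blood as well numbered 3. Of all windows tested, 0.0440% were called in hippocampus at week 3, 0.0408% at week 24, and 0.0495%, 0.196% and 0.0244% in blood at weeks 3, 8 and 24. None of the 742 was among the 1024 of hippocampus at week 3, and 2 were among the 949 at week 24 (0.270% of the week 8 list and 0.211% of the week 24 list). A window inside Armh4 (chromosome 14, 49711001 to 49712000) was higher at both ages, 13.6 points at week 8 and 16.6 points at week 24, per the authors' deposited table. The other (chromosome 1, 18348001 to 18349000), with no gene within 10 kb, had -11.4 points at week 8 and 12.7 points at week 24 per the authors' deposited table. In blood at week 8, 1 of 4526 windows was the same, the one over the start of Eif4a3 shown above. It stood at 11.5 points in hippocampus and -11.6 points (adjusted p = 0.0124) in blood per the authors' deposited table, so its sign differed between the tissues, a difference that was not itself tested. Blood at weeks 3 and 24 shared 0 windows with it.

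By gene the lists shared more, and genes with a window in both were long. Of the 376 coding genes with a window, 38 (10.1%) also had one at week 3 in hippocampus, which is 6.76% of the 562 genes there, beside 2.60% of all coding genes called at week 3. At week 24 it was 35 (9.31%), 6.65% of 526 genes, beside 2.43% of all coding genes. In blood at week 8 the number was 108 (28.7%), 2.56% of 4217 genes, beside 19.5% of all coding genes. Blood at week 3 shared 35 (9.31%, beside 2.79%) and blood at week 24 shared 14 (3.72%, beside 1.25%). The median length of the shared genes lay between 252 kb (blood at week 8) and 492 kb (blood at week 24), against 97.5 kb for all 376 genes and 17.3 kb for all coding genes, and the shares were not matched for length. Named coding genes with a window at all 3 hippocampal ages numbered 3, each with different windows, and they were picked out after their values were seen. Nell1 was lower each time, at -19.0, -26.8 and -12.0 points at weeks 3, 8 and 24, per the authors' deposited table. Pcdh9, a protocadherin, was higher at each hippocampal age, at 13.4, 20.7 and 13.1 points per the authors' deposited table. In blood at week 8 a Pcdh9 window stood at -10.9 points (adjusted p = 0.0607) per the authors' deposited table. St8sia2, which makes the polysialic acid of neural cell adhesion molecules, had -12.6 and -14.9 points inside the gene at weeks 3 and 8 and 11.2 points 7.27 kb outside it at week 24 per the authors' deposited table. Nell1 and Pcdh9 are both over 500 kb long.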

How the data were processed

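Whole-genome bisulfite libraries of hippocampus were compared, 10 of App-NLGF and 10 of wild-type mice at week 8. Per the submitters' processing notes, the tools were Bismark, methylKit, Trim Galore and FastQC on mm10; no source used here gives their versions, the coverage filter or the adjustment method. Sex entered as covariate, per the series' design text. For each 1 kb window the authors deposited a p-value, an adjusted p-value and a signed difference in percentage points. Every deposited adjusted p was under 0.1 and every absolute difference at least 10 points. No test over libraries was fitted, since values per library were not used here, so depth and replicate spread are unknown.

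The number of windows tested was recovered by dividing p by adjusted p, assuming the Benjamini-Hochberg method. For this comparison 85.3% of ranks were whole numbers to within 0.02, and the step was tested on simulated data. Windows were assigned to GRCm38.p6 genes (49554, of which 21631 coding) that they overlapped or lay within 10 kb of, and to gene starts and strands from RefSeq promoter entries. The grid ran from the first to the last gene of each chromosome, and 2 windows on unplaced scaffolds were left out of positions. Intervals are exact Clopper-Pearson (scipy 1.17.1).

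No test over windows or genes was made. The windows, the gene lists and the rules were chosen with earlier results of these data known. Named genes are the 10 largest increases and decreases inside coding genes, the 10 smallest adjusted p, genes with a window at an end or with at least 2 windows, list members, and windows called in another comparison; predicted genes were counted. Alternatives were stricter limits, merged windows, left-out chromosomes, gene bodies alone and wider ends or overlaps. Values of some genes that the rule names are not reported here.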

Additional observations from a re-analysis of the deposited data

How the results depend on the processing

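Merging windows within 10 kb or leaving out chromosome X or 16 left the number of windows, the share higher, the median difference, the shares inside coding genes and at gene ends, and the number of coding genes close to their values, with 52.97% higher when windows at gene ends were dropped. Stricter limits changed more. With an adjusted p under 0.05, 220 windows, 129 coding genes and a median absolute difference of 14.2 points remained, and under 0.01, 27 windows, 17 genes and 17.1 points, with 70.4% higher, 44.4% inside coding genes and 11.1% at gene ends. At 15 points or more there were 282 windows, 110 genes, a median of 18.5 points and 30.7% inside coding genes. At 20 points or more there were 98 windows, 45 genes, a median of 22.8 points and 3.09% at gene ends, and the majority of higher windows reversed to 48.0%. These are smaller lists by construction. Windows within 2 kb of a coding start made up, in alternatives chosen after seeing the data, 7.69% of higher and 1.03% of lower windows with an adjusted p under 0.05, 6.43% and 0.769% at 15 points or more, 16.7% (3 of 18) and 0% (0 of 7) with an adjusted p under 0.01, and 4.35% (2 of 46) and 2.08% (1 of 48) at 20 points or more. Counting overlaps within 5 kb gave 2 windows with hippocampus week 3, 6 with week 24, and 3, 16 and 1 with blood at weeks 3, 8 and 24. Of 375 pairs of a named gene and window 123 had an adjusted p under 0.05. No paired analysis was possible because no values per library were used here, and leaving out each replicate was not run for the same reason. Depth is unknown, so the reads behind a difference cannot be weighed.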

Other observations

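Olfactory receptor genes had 7 of 1110 coding members with a window (0.631%, 3 windows higher and 4 lower), zinc finger Zfp genes 4 of 397 (1.01%, 3 higher and 1 lower) and solute carrier genes 9 of 375 (2.40%, 7 higher and 2 lower), beside 1.74% of all coding genes. These families were chosen after the data were seen. Of 1005 microRNA hairpins none was overlapped by a window and 4 had one within 10 kb. The 1.74% of coding genes is for longer stretches, and no share for stretches as short as hairpins was computed. These counts are therefore no result about microRNAs. Mir6346 lay 1.70 kb from a window of 10.8 points and Mir6238 2.11 kb from one of -15.7 points per the authors' deposited table.

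The largest increase in the authors' deposited table for this comparison, 37.6 points (adjusted p = 0.0213), lay on chromosome 12 at 22798001 to 22799000, with no annotated gene within 10 kb. Of the 12 windows with the largest absolute differences, 6 lay outside every annotated gene.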
